A study of Mus musculus with 6 samples.

Results

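The circadian clock genes described here are 10 genes: Clock, Per1, Per2, Per3, Cry1, Cry2, Nr1d1, Nr1d2, Dbp and Tef. They were chosen by symbol as core clock and clock output genes, and 10 of the 55414 genes in the deposited table carry these symbols, 1 row each. They were followed in liver natural killer (NK) cells of wild-type mice, in 3 libraries from mice given PBS and 3 from mice given metformin (200 mg/kg for 3 days), all labelled day 3. NK cells are cytotoxic innate lymphocytes, PBS is the saline control, and metformin is a diabetes drug that lowers cellular energy charge and activates AMP-activated protein kinase (AMPK). The sources used here do not give the gate used to isolate the NK cells or the time of day of sampling. Nothing in the labels ties each of the 3 libraries in a group to its own mouse, so the p-values here cover the spread between libraries, which may be technical.

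The mammalian clock is a feedback loop of transcription. CLOCK pairs with BMAL1 (listed under its older symbol, Arntl) and drives genes whose promoters carry an E-box, among them the Per, Cry, Nr1d and PAR bZIP genes. PER and CRY proteins return to the nucleus and repress CLOCK and BMAL1, while REV-ERB proteins (Nr1d1, Nr1d2) repress and ROR proteins activate Arntl. Dbp and Tef are PAR bZIP factors that bind D-boxes and carry the rhythm to output genes. AMPK is known to phosphorylate CRY1 and mark it for degradation, a step on the protein that a transcript level does not report. In the liver the loop cycles strongly in hepatocytes, and lymphocytes carry a clock of their own.

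Promoters of these genes were searched for the motifs that clock factors bind. The windows are the 250 bases before a transcription start in RefSeq, build GRCm38.p6, on the gene's strand, 5′ to 3′, with the searched motifs in capitals. Promoters were found for 9 of the 10 genes. The motifs, searched on both strands, were the E-box CACGTG, the E′-box CACGTT, the D-box TTATGNAA, the ROR element TAGGTCA and the cyclic AMP response element TGACGTCA. Per1 is shown at both starts because its reads and TPM implied a different transcript length in the groups, Cry1 because its promoter holds an E-box beside an E′-box (printed as its reverse complement AACGTG), Tef because it is the most abundant of the 10 genes, and Per3 for its pair of D-boxes.
Per1, start 1, chr11:69098699-69098948, plus strand: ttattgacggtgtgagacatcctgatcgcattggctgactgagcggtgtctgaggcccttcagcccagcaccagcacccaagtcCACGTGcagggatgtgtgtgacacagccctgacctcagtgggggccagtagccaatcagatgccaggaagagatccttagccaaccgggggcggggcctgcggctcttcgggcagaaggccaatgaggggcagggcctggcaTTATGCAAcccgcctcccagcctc
Per1, start 2, chr11:69099902-69100151, plus strand: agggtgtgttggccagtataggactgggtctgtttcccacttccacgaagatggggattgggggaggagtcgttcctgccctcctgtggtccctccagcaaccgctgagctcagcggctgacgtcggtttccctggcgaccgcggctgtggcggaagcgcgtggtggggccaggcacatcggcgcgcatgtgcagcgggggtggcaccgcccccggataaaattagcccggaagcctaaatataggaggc
Per3, chr4:151044666-151044915, minus strand: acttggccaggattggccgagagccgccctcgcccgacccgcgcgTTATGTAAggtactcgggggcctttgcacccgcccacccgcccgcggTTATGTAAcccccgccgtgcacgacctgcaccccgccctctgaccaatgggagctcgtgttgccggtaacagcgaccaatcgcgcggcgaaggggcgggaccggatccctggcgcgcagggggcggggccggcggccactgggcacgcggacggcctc
Cry1, chr10:85185055-85185304, minus strand: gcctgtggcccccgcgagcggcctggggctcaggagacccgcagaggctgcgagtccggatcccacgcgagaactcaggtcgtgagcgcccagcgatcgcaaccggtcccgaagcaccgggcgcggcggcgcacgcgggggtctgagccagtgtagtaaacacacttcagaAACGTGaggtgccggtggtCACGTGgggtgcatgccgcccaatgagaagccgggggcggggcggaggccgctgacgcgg
Tef, start 1, chr15:81802423-81802672, plus strand: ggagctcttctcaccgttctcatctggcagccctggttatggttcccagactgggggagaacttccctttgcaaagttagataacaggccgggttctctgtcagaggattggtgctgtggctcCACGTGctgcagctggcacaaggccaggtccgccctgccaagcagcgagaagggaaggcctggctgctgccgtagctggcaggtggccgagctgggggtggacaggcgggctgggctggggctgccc
The upstream start of Per1 held an E-box 166 bases and a D-box 24 bases before the start site, and the downstream start held none of the 5 motifs. In Cry1 the E′-box lay 79 bases and the E-box 60 bases before the start. The D-boxes of Per3 lay 205 and 158 bases before its start, and Tef had an E-box at each of its starts, 127 and 138 bases before them. The promoters of Cry2 and Nr1d1 held an E′-box, 166 and 28 bases before the start. No match was found in the windows of Clock, Nr1d2 and Dbp, which says only that these letters are not in those windows. An E-box was thus present in 3 of the 9 genes, an E′-box in 3, a D-box in 2, and a ROR element or a cyclic AMP response element in 0. Of 32851 RefSeq promoters of this length, 6.02% held the E-box, 3.85% the E′-box, 3.07% the D-box, 2.23% the ROR element and 1.55% the cyclic AMP response element. A clock gene was counted if any of its starts held the motif, whereas these shares count single windows, so they are not like for like.

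The libraries held 22152167 to 30161214 estimated reads, and each metformin library was shallower than each PBS library. These are PCR-amplified reads without molecular identifiers, so counting error understates their spread. Metformin 3 stood apart: its score on principal component 1 (29.8% of the variance) was 70.0, against -30.8 to 10.7 elsewhere, and its deviations fell with gene length (Spearman -0.42 across genes, against -0.11 to 0.33 in the other libraries). For part of the values below, the value without it is also given. A value given alone may depend on this library too. NK markers were high in every library (sum of 13 genes 23270 to 25509 CPM in the PBS and 24871 to 28493 CPM in the metformin libraries). The sum of 13 T cell markers was 2051 to 2392 CPM with PBS and 2726 to 3073 CPM with metformin (two-sided exact permutation p = 0.1, the minimum for groups of 3). Lck, which NK cells express too, made up much of that sum. Gene by gene all 13 had a positive log2 fold change (median 0.87), and 6 were higher without overlap, beside 9.49% of all genes. On the higher side 6 had an unadjusted edgeR p under 0.05, beside 5.29% of all genes. DESeq2 called 5, among them Cd3g and Cd8a, beside 1.93% of all genes. Cd3g was highest in metformin 3 (688 CPM), where Cd3e (24.3 CPM), Cd3d (25.0 CPM) and Trac (21.4 CPM) were the lowest of the metformin libraries. The sum of 24 hepatocyte markers was 309 to 506 CPM with PBS and 341 to 878 CPM with metformin, highest in metformin 3 (exact p = 0.7). The mean log2 of that sum, metformin minus PBS, was 0.30, and -0.14 without metformin 3. Of 14 macrophage markers 12 were tested, 9 of them higher and 3 lower, with a median log2 fold change of 1.42. C1qa, Adgre1 and Marco were higher without overlap (9.49% of all genes tested), and Ccr2 and Csf1r lower without overlap (9.63%). DESeq2 called 4 of the 12, beside 1.93% of all genes. Metformin 3 held the most Marco (10.6 CPM, at most 1.17 CPM elsewhere), C1qc (22.9 CPM, at most 4.95 CPM elsewhere) and Lyz2 (550 CPM, at most 322 CPM elsewhere). None of the NK, T cell and hepatocyte markers was at 0 in all libraries. T cells, macrophages and hepatocytes carry clock transcripts too, and the part of these cells in the results below was not tested. In bulk RNA, fewer cells of a type and less RNA per cell cannot be told apart.

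All 10 clock genes were expressed and passed the filter on low counts, and their levels spanned a wide range. Compared per length, as deposited TPM averaged over the 6 libraries, Tef (30.9 TPM) and Nr1d2 (27.4 TPM) were the most abundant. Cry1 (16.7 TPM), Cry2 (12.3 TPM), Dbp (10.7 TPM) and Per1 (9.75 TPM) formed the middle of the order. Clock (5.41 TPM), Per2 (3.45 TPM), Nr1d1 (1.62 TPM) and Per3 (1.17 TPM) were the lowest. Neighbours in this order overlapped between libraries in each of the 9 neighbouring pairs, whereas Tef, at 23.5 to 36.1 TPM, lay above Cry1, at 14.1 to 19.3 TPM, in every library. Paralogs were unequal: Nr1d2 stood far above Nr1d1, and Per1 above Per2 and Per3. Among the other core clock genes Bhlhe40, an E-box binding repressor, was at 161 TPM and Nfil3, a D-box repressor required for NK cell development, at 71.7 TPM. Arntl was at 17.5 TPM, while Npas2, the paralog of Clock, was at 0.42 TPM.

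Against PBS, metformin gave small differences in both directions, and edgeR's quasi-likelihood test called none of the 10 genes after adjustment over all genes. The edgeR background is as low: 0 of 15527 genes tested (0%) had an adjusted p under 0.05, 1610 had an unadjusted p under 0.05, limma-voom called 0, and DESeq2 called 299 (1.93%), with 0 of the 10 clock genes among them. Of the 10, 3 had a positive and 7 a negative log2 fold change, with a median of -0.21 beside 0.01 over all genes tested. Clock alone had an unadjusted p under 0.05 on the lower side, where 5.08% of all genes did, and 0 of the 10 on the higher side, where 5.29% did. In CPM scaled by TMM library sizes the groups did not overlap for 1 gene that was higher with metformin (Per1; 9.49% of all genes) and for 2 that were lower (Clock and Tef; 9.63% of all genes). Over 10 genes these backgrounds come to about 1 gene in each direction, so counts of 1 and 2 are not a result about the clock genes as a set. The median of the 10 depended on single libraries: it was -0.07 without metformin 3 or without PBS 3, -0.35 without metformin 1, and -0.10 with the length trend removed.

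**Figure D1:**
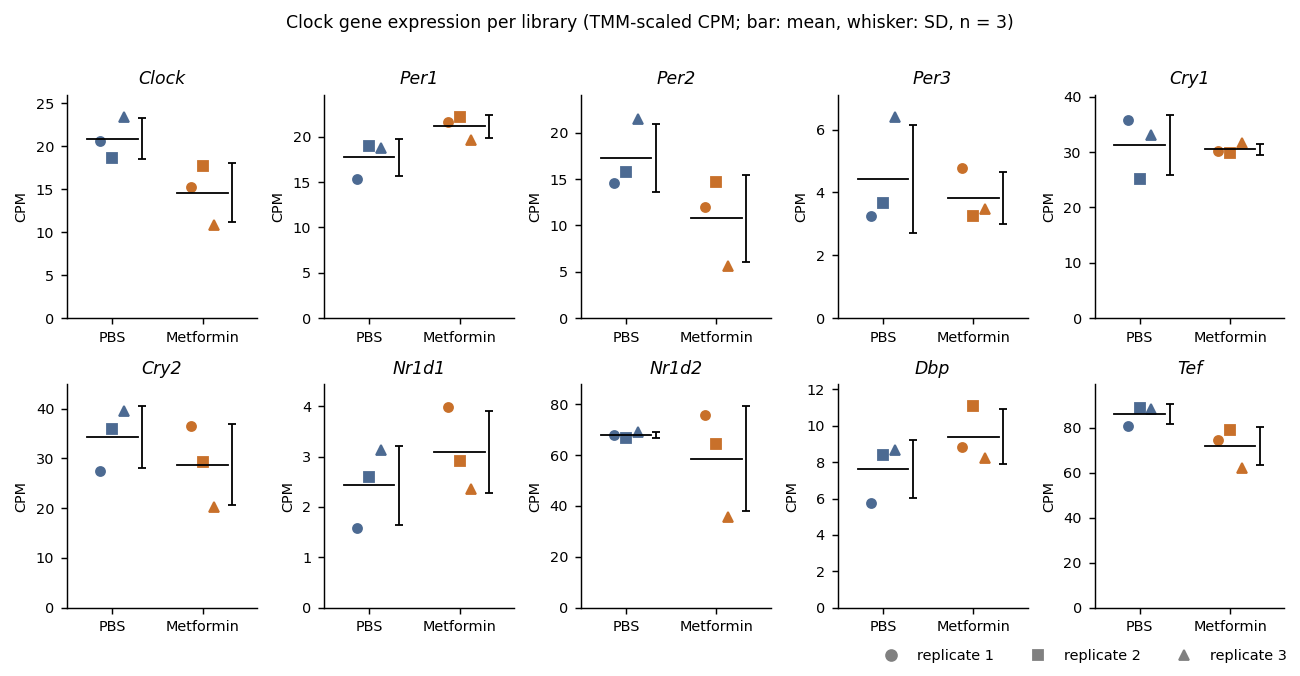
Expression of each of the 10 clock genes (y axis, TMM-scaled CPM, from 0) in the 3 PBS and 3 metformin libraries; points are libraries with a marker shape per replicate number, bars are means and whiskers SD (n = 3). The groups separate for Clock (10.9 to 17.6 CPM with metformin, 18.6 to 23.4 with PBS), Per1 and Tef, and metformin 3 is the lowest metformin library for 8 genes, among them Per2 and Nr1d2.

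Clock, which encodes the DNA-binding partner of BMAL1 (ENSMUSG00000029238.12, minus strand of chromosome 5, 76357715 to 76452639 in the table's coordinates), was lower with metformin. Its level was 20.6, 18.6 and 23.4 CPM in PBS 1, 2 and 3 and 15.2, 17.6 and 10.9 CPM in metformin 1, 2 and 3. Every metformin library lay below every PBS library, metformin 3 farthest. The PBS mean was 20.9 ± 2.40 CPM and the metformin mean 14.6 ± 3.43 CPM (SD, n = 3 each), which is -0.52 as a log2 fold change (SE 0.20; edgeR unadjusted p = 0.032, adjusted p = 0.459; DESeq2 adjusted p = 0.252). Clock has the longest transcript of the 10 genes, 9744 bases in the table. With the trend of each library on gene length removed its log2 fold change was -0.40 (edgeR adjusted p = 0.440), and without metformin 3 it was -0.35 (adjusted p = 0.475). Arntl, its partner, averaged 35.9 ± 2.48 CPM in the PBS and 31.3 ± 4.10 CPM in the metformin libraries, and the groups overlapped (log2 fold change -0.20, SE 0.13; edgeR adjusted p = 0.619). It was -0.31 without metformin 1 (unadjusted p = 0.048, adjusted p = 0.548) and -0.12 with the length trend removed. On the TPM scale they did not overlap, 18.0 to 20.5 TPM against 13.4 to 17.9 TPM. Npas2 was near the detection floor, at 3 to 48 reads, with a log2 fold change of -0.36 (SE 0.75), and 0.15 without metformin 3.

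The 3 Period genes, whose proteins are the limiting repressors of the loop, went apart. Per1, also an immediate-early gene that light, hormones and cyclic AMP induce (ENSMUSG00000020893.18, plus strand of chromosome 11, 68986043 to 69000786), was at 15.4, 19.0 and 18.8 CPM with PBS and 21.6, 22.2 and 19.7 CPM with metformin. All 3 metformin libraries were above the PBS libraries, metformin 3 by little. The log2 fold change was 0.26 (SE 0.14; 95% interval -0.02 to 0.53; edgeR adjusted p = 0.557), and 0.15 without PBS 1. Per2 (ENSMUSG00000055866.10, minus strand of chromosome 1, 91343704 to 91387046) was at 14.6, 15.7 and 21.5 CPM with PBS and 11.99, 14.7 and 5.61 CPM with metformin. The groups overlapped narrowly, since metformin 2 lay just above PBS 1, and metformin 3 was far below the rest. The log2 fold change of Per2 was -0.68 (SE 0.34; edgeR unadjusted p = 0.077, adjusted p = 0.517), the most negative among the 10 genes, and -0.38 without metformin 3. Its nominal 95% interval, -1.34 to -0.02, uses a normal quantile and is narrower than the edgeR test implies. Per3 was low, at 3.24, 3.65 and 6.40 CPM with PBS and 4.77, 3.25 and 3.46 CPM with metformin. The log2 fold change, -0.21 (SE 0.34; edgeR adjusted p = 0.843), rested on PBS 3 and was 0.15 without that library.

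Set against each other within a library, where scaling cancels, Per1 and Per2 separated the groups. The ratio of Per1 reads to Per2 reads was 1.05, 1.21 and 0.873 with PBS and 1.80, 1.51 and 3.51 with metformin. Each metformin library thus had a higher ratio than each PBS library, and in PBS 3 Per1 had fewer reads than Per2 (570 against 653). The difference between the log2 fold changes of Per1 and Per2 was 0.94, and 0.95 with the length trend removed. The same ratio of Dbp to Tef was 0.0715, 0.0941 and 0.0983 with PBS and 0.119, 0.141 and 0.132 with metformin. Nr1d1 to Nr1d2 was 0.0234, 0.0387 and 0.0453 with PBS and 0.0527, 0.0455 and 0.0661 with metformin, a separation of less than the spread within either group. For Cry1 to Cry2 the groups overlapped, at 0.701 to 1.30 with PBS and 0.825 to 1.56 with metformin. In deposited TPM the groups overlapped for Nr1d1 to Nr1d2 also, and stayed apart for Per1 to Per2 and Dbp to Tef. These 4 ratios were formed after the values of the genes had been seen, so they are a description without a test. How often ratios of other gene pairs separate the groups was not computed. Single genes were higher without overlap at 9.49% and lower at 9.63%.

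Per1 moved more on the deposited TPM than in reads. It was at 6.10, 7.59 and 8.21 TPM with PBS and 13.9, 13.2 and 9.52 TPM with metformin, with no overlap (limma on log2(TPM + 0.1): 0.72, adjusted p = 0.379; the median of all genes on that scale was -0.10). If TPM divides reads by the length of the transcripts they were assigned to, reads and TPM together give an implied transcript length. That use of length is inferred here, and the implied length is approximate. Genes with a single transcript missed their listed length by a median of 0.12 log2 units. For Per2 the implied length, 6705 to 6821 bases, was above its longest listed transcript, 5833 bases. The implied length of Per1 was 4144, 4268 and 4016 bases in the PBS libraries and 2445, 2770 and 3045 bases in the metformin libraries. It was shorter in every metformin library, with group means of 4143 ± 126 and 2753 ± 300 bases (SD, n = 3), a log2 difference of -0.59. Across the 10663 genes with several transcripts and enough reads, limma gave Per1 an unadjusted p of 0.000686, at place 15 by p, but an adjusted p of 0.460, and it called 0 genes (0%). Of those genes, 36 (0.338%) had a more negative log2 difference, and leaving out each library in turn gave -0.67 to -0.51. GENCODE M21 lists 6 Per1 transcripts of 496 to 4671 bases, and the RefSeq starts shown above differ in their motifs. Which transcripts were present was not tested, since the table holds gene totals. The groups also did not overlap, with metformin shorter, for Per3 (5906 to 6644 against 5130 to 5394 bases, log2 difference -0.27, limma adjusted p = 0.591), Cry1 and Tef, as for 8.65% of the genes compared. For Cry1 the means were 3048 and 2993 bases and for Tef 4338 and 4039 bases, and the other 6 clock genes overlapped.

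**Figure D2:**
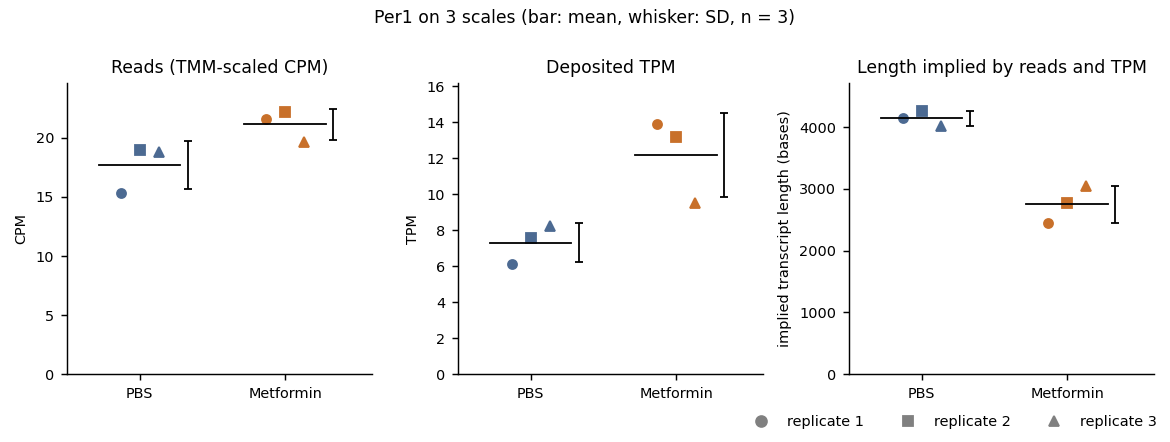
Per1 in the 3 PBS and 3 metformin libraries as TMM-scaled CPM, as deposited TPM and as the transcript length in bases implied by reads and TPM (each y axis from 0); points are libraries, bars means and whiskers SD (n = 3). Reads separate narrowly, TPM widely (6.10 to 8.21 against 9.52 to 13.9), and the implied length is 4016 to 4268 bases with PBS and 2445 to 3045 bases with metformin.

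The cryptochromes, the stronger repressors of CLOCK and BMAL1 and the clock proteins that AMPK acts on, did not separate the groups. Cry1 was at 35.7, 25.2 and 33.03 CPM with PBS and 30.2, 29.8 and 31.6 CPM with metformin. The metformin libraries all lay inside the range of the PBS libraries, and the log2 fold change was -0.04 (SE 0.15; 95% interval -0.32 to 0.25; edgeR adjusted p = 0.937). Cry2 was at 27.5, 36.0 and 39.6 CPM with PBS and 36.6, 29.3 and 20.3 CPM with metformin. The libraries ran through each other, metformin 3 being the lowest and PBS 3 the highest. The log2 fold change of Cry2, -0.26 (SE 0.23; edgeR adjusted p = 0.702), was -0.07 without metformin 3 and -0.48 without metformin 1. Among 28 genes for proteins that modify or bind clock proteins, 9 had a positive and 19 a negative log2 fold change (median -0.10). Of them 0 had an unadjusted edgeR p under 0.05, beside 5.29% of all genes higher and 5.08% lower. The smallest p values in that list were those of Usp7, a deubiquitinase of CRY, at 181 to 190 CPM with PBS and 115 to 177 CPM with metformin (log2 fold change -0.30, SE 0.15; edgeR unadjusted p = 0.086, adjusted p = 0.531), and Ep300, a histone acetyltransferase that acts with CLOCK and BMAL1 (log2 fold change -0.34, SE 0.18; adjusted p = 0.541). Metformin 3 was the lowest library for both, and without it each was at -0.15 on the log2 scale. Of 7 AMPK subunit genes 6 were tested, 2 with a positive and 4 with a negative log2 fold change (median -0.15, but -0.01 without metformin 3, -0.03 without PBS 3 and -0.09 without metformin 1). Prkab2, a regulatory beta subunit, was at 13.1 to 14.1 CPM with PBS and 6.26 to 11.2 CPM with metformin (log2 fold change -0.68, SE 0.23; edgeR unadjusted p = 0.020, adjusted p = 0.420).

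The REV-ERB genes, nuclear receptors that bind heme and repress Arntl, gave no separation. Nr1d2 (REV-ERB beta) was at 67.8, 66.9 and 69.1 CPM with PBS, within a narrow band, and at 75.6, 64.2 and 35.8 CPM with metformin. Metformin 1 lay above, and metformin 2 and 3 below, every PBS library. The log2 fold change was -0.21 (SE 0.24; edgeR adjusted p = 0.762), and it became 0.04 without metformin 3. Nr1d1 (REV-ERB alpha) rested on 43 to 95 reads per library, at 1.58, 2.59 and 3.13 CPM with PBS and 3.98, 2.92 and 2.37 CPM with metformin. The groups overlapped, the fold change being 0.34 on the log2 scale (SE 0.37; 95% interval -0.38 to 1.06; edgeR adjusted p = 0.752), 0.10 without PBS 1 and 0.11 without metformin 1. Among the ROR genes, the activators that compete with REV-ERB, Rora averaged 28.4 ± 3.31 CPM in the PBS and 31.2 ± 5.30 CPM in the metformin libraries (log2 fold change 0.13, SE 0.16; edgeR adjusted p = 0.775). Metformin 3 was the highest library for Rora, at 36.4 CPM; without it the log2 fold change was 0.0002, with each of the others left out it was 0.07 to 0.25, and on TPM it was 0.03. Rorb, at 0 to 1 reads, was not tested.

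The PAR bZIP outputs, which follow CLOCK and BMAL1 activity closely in the liver, also split. Dbp, with the widest daily swing of the family, was at 5.78, 8.37 and 8.67 CPM with PBS and 8.84, 11.1 and 8.24 CPM with metformin. PBS 1 was the lowest library and metformin 2 the highest, and the groups overlapped through metformin 3. Its log2 fold change was 0.30 (SE 0.24; edgeR adjusted p = 0.663), 0.13 without PBS 1 and 0.16 without metformin 2. Tef (ENSMUSG00000022389.16, plus strand of chromosome 15, 81686622 to 81711064) was at 80.8, 88.95 and 88.2 CPM with PBS and 74.5, 78.9 and 62.3 CPM with metformin. Each metformin library was below each PBS library, with means of 86.0 ± 4.50 and 71.9 ± 8.61 CPM (SD, n = 3). The log2 fold change of Tef was -0.26 (SE 0.11; edgeR unadjusted p = 0.054, adjusted p = 0.482). It was -0.17 without metformin 3 and -0.17 with the length trend removed, and on the TPM scale the groups overlapped. Hlf, another PAR bZIP gene, was low, and its fold change, -1.18 in log2 (SE 0.61; edgeR adjusted p = 0.531), was -0.45 without PBS 1, which at 6.74 CPM was above the other 5 libraries, at 0.964 to 3.00 CPM.

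**Figure D3:**
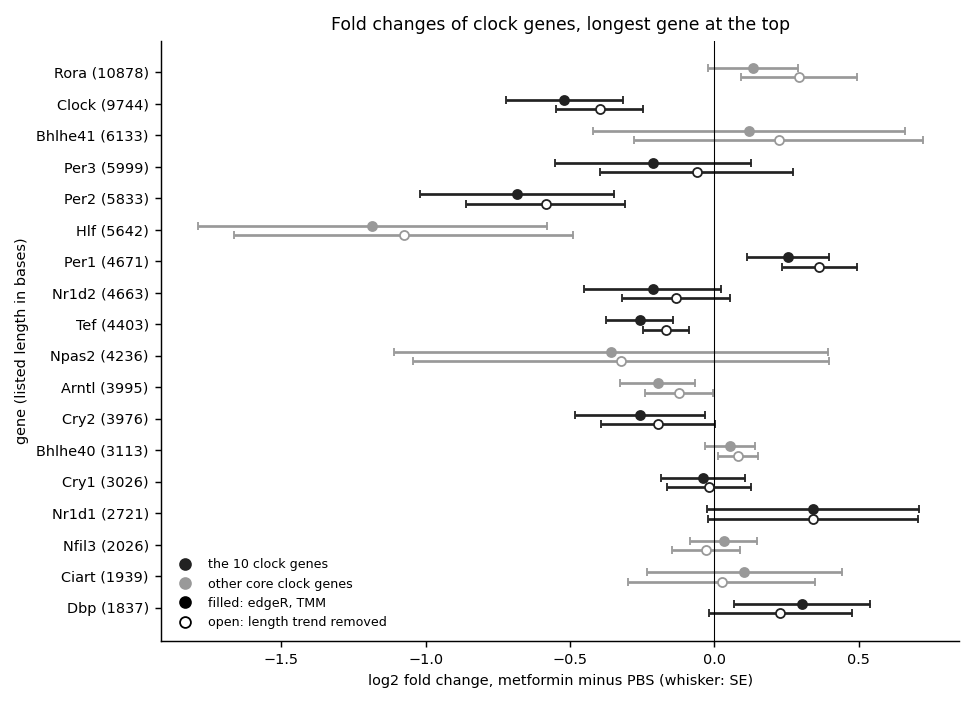
Log2 fold change of metformin against PBS (x axis) for the 10 clock genes (black) and the 8 other core clock genes that were tested (grey), ordered by listed gene length; filled points are the edgeR TMM fit, open points the fit with the length trend removed, and whiskers are SE. Clock and Per2 lie at -0.52 and -0.68, Per1 at 0.26, and removing the length trend moved Tef from -0.26 to -0.17.

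In CPM the other core clock genes did not separate the groups, while on TPM Arntl did, as given above. Of 10 such genes 8 were tested, 5 with a positive and 3 with a negative log2 fold change (median 0.04; -0.07 on TPM; -0.15 to 0.02 with each library left out). At an unadjusted edgeR p under 0.05 stood 0, beside 5.29% of all genes higher and 5.08% lower. Groups that did not overlap in CPM were found for 0, beside 9.49% higher and 9.63% lower. With 8 genes, counts of 0 at these shares are not a result about them. Bhlhe40 averaged 317 ± 8.60 CPM in the PBS and 329 ± 17.1 CPM in the metformin libraries (log2 fold change 0.05, SE 0.09; edgeR adjusted p = 0.844; -0.04 on TPM). Nfil3 was at 94.1 ± 8.85 and 96.2 ± 9.79 CPM (log2 fold change 0.03, SE 0.12; -0.03 with the length trend removed; -0.09 on TPM). The repressor genes Bhlhe41 and Ciart were low, with log2 fold changes of 0.12 (SE 0.54) and 0.10 (SE 0.34), and each took the other sign without some libraries. Arntl2, a paralog of Arntl, was at 0 to 6 reads and was not tested.

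In mouse tissues transcripts of the clock fall into sets that peak around dusk and around dawn, although genes within a set peak hours apart. How a change of phase would show depends on the time of day of sampling, so the values of the sets are described without a reading as to phase. The dusk side was taken as 12 genes (Per1, Per2, Per3, Cry2, Nr1d1, Nr1d2, Dbp, Tef, Hlf, Ciart, Bhlhe41 and Usp2) and the dawn side as 5 (Arntl, Clock, Npas2, Cry1 and Nfil3). With metformin the dusk side was split, 6 positive and 6 negative (median log2 fold change -0.05; -0.30 without metformin 1), and the dawn side was 1 positive and 4 negative (median -0.20, -0.07 without metformin 3, -0.05 without PBS 1 and -0.31 without metformin 1). Per library, the mean log2 CPM of the dusk side minus that of the dawn side was -1.56, -1.20 and -1.20 with PBS and -1.06, -1.43 and -0.93 with metformin. The groups overlapped, with means of -1.32 ± 0.21 and -1.14 ± 0.26 (SD, n = 3), a difference of 0.18 log2 units. For the 12 dusk and 5 dawn genes the difference was 0.06 without PBS 1, 0.07 without metformin 3 and 0.32 without metformin 2. Over the 6 dusk and 4 dawn genes with a mean of at least 5 CPM it was 0.01 with all 6 libraries. Metformin 3 was the lowest library on both sides, at -0.32 (dusk) and -0.63 (dawn) log2 units from the mean of the 6 libraries, and had the highest dusk minus dawn value. Its dawn value drew on Npas2, at 3 reads and -2.25 log2 units; over genes with a mean of at least 5 CPM metformin 3 was at -0.48 (dusk) and -0.22 (dawn), so the order of the sides turned. Within the dusk side Per1, Dbp and Nr1d1 had positive and Per2, Tef and Nr1d2 negative log2 fold changes. No p is given for these scores, since the genes were chosen with earlier results known.

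**Figure D4:**
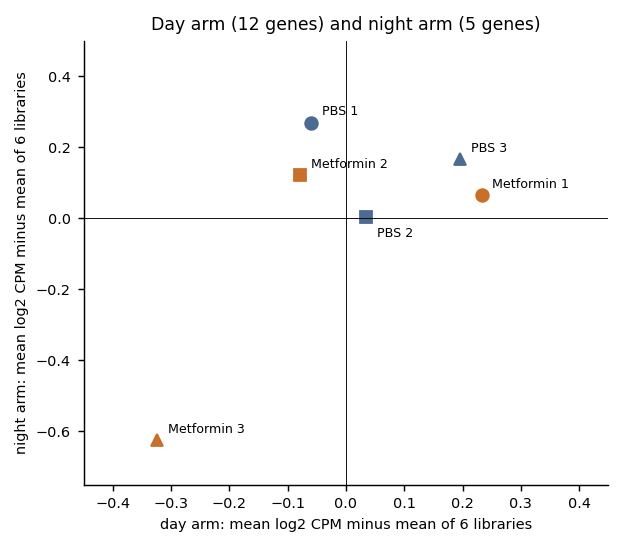
Each of the 6 libraries by the mean log2 CPM of the 12 dusk-side genes (x axis, day arm) and of the 5 dawn-side genes (y axis, night arm), each minus its mean over the libraries. Metformin 3 lies low on both axes (-0.32 and -0.63, the latter drawing on Npas2 at 3 reads), and the PBS and metformin libraries do not fall on opposite sides of either axis.

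Genes known to follow the clock (17), immediate-early genes (15) and glucocorticoid-induced genes (12) held 0 edgeR calls after adjustment. DESeq2 called 1 (E2f8), 1 (Nr4a1) and 2 (Il7r and Sgk1) of them, beside 1.93% of all genes tested. Of 17 clock-controlled genes, 8 had a positive and 9 a negative log2 fold change. Their median was -0.06, with -0.22 on TPM, -0.13 without metformin 2 and -0.12 without metformin 3. At an unadjusted p under 0.05 stood 1 higher and 2 lower, beside 5.29% and 5.08% of all genes. These were E2f8, a cell cycle repressor, at 8.04 to 13.5 CPM with PBS and 4.12 to 7.004 CPM with metformin (log2 fold change -1.05, SE 0.30; edgeR adjusted p = 0.338; DESeq2 adjusted p = 0.045), Tars, a threonyl-tRNA synthetase (-0.27, SE 0.10), and Klf13, a zinc finger factor (0.28, SE 0.12; 0.17 without metformin 3). Of 15 immediate-early genes that share inducers with Per1, 5 were positive and 10 negative (median -0.06; -0.16 without metformin 2; -0.19 on TPM). Nr4a1, an orphan nuclear receptor induced by antigen receptor signals, was at 64.2 to 75.6 CPM with PBS and 35.4 to 44.1 CPM with metformin, which is -0.75 in log2 (SE 0.12), with an edgeR adjusted p of 0.185 and a DESeq2 adjusted p of 9.02e-05. Of 12 glucocorticoid-induced genes, a hormone input to Per1, 10 were positive and 2 negative (median 0.10; 0.06 without PBS 1; 0.04 without metformin 3; -0.04 on TPM). At an unadjusted p under 0.05 stood 2 higher and 2 lower, beside the same shares of all genes. Il7r, the interleukin 7 receptor (0.74, SE 0.11; DESeq2 adjusted p = 2.96e-05), and Fkbp5, a chaperone of the glucocorticoid receptor (0.61, SE 0.18), were higher. The kinase Sgk1 (-0.66, SE 0.10; DESeq2 adjusted p = 2.96e-05) and the chemokine receptor Cxcr4 (-0.52, SE 0.16) were lower, and the edgeR adjusted p of the 4 was 0.168 to 0.361.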

How the data were processed

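RNA was measured in 6 libraries of liver NK cells, made with SMART-seq mRNA chemistry per the labels' protocols. The authors deposited 1 table with an estimated count per gene and library, not normalized, and TPM values, scaled by the authors to transcript length and to an equal total per library. The submitters' processing notes name DRAGEN, without a version, and the builds GRCm39 and mm10, without a role; strand use, filters and the handling of shared reads are not given in the sources used here, so antisense or overlapping genes cannot be told apart. Positions are printed as the table holds them, promoters in GRCm38.p6 from RefSeq. Of the value columns, 0 were left without a sample.

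Estimated counts were rounded and tested with edgeR 4.0.16 (filterByExpr, TMM, glmQLFit and glmQLFTest, no covariate) in R 4.3.3, which kept 15527 genes. Adjusted p-values are Benjamini-Hochberg over all genes tested, at 0.05. SEs follow from the F statistic. Intervals are nominal 95% from the SE with a normal quantile, so they are narrower than the edgeR test implies. CPM uses TMM library sizes. Alternatives were DESeq2 1.42.0, limma-voom (limma 3.58.1), other scalings, a lowess on gene length (span 0.3), other filters (none; 5 CPM in 3 libraries), TPM with pseudocounts 0.1 and 1, the replicate number as a block and each library left out. The procedure was also run on simulated counts, with the outcome not reported here. Those counts held neither the length trend nor the outlying library of these data. The implied length, added after seeing the data, is reads over TPM, scaled in each library on 1195 genes with a single transcript of at least 1000 bases, for genes with several transcripts and at least 20 reads in every library, and tested with limma on the log2 scale.

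Members and lists were chosen with earlier results of these data known, so lists are given by counts and medians without a test. Named were the 10 clock genes, the 10 other core clock genes, the genes of other lists with an unadjusted p under 0.05 (at most 6, or the 2 smallest), and the 5 genes closest to Dbp and to Nr1d1; some genes of these lists are not reported here. Replicates differed beyond read sampling (chi-square over its degrees of freedom 14.8 to 63.9).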

Additional observations from a re-analysis of the deposited data

How the results depend on the processing

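No clock gene passed the adjusted threshold in any setting tried. Over all genes the count of calls was 0 with edgeR, 299 with DESeq2, 1 with the length trend removed, 1 without the low-count filter, 0 to 1 with each library left out, and 3 with the replicate block. With the group mean of each gene taken out, same-numbered libraries correlated at 0.08 to 0.17 and differently numbered ones at -0.24 to 0.08. By these values 5 of 6 libraries matched best with their own number. The same correlation can count for both of its libraries, so these matches are not independent. The labels do not say that the number marks a pair, so the main fit had no pairing. The median of the 10 genes was -0.22 with the replicate block. The median of the 10 genes ranged from -0.35 to -0.07 and that of the dusk side from -0.30 to 0.016 with each library left out; the dawn side ranged from -0.31 to -0.049 and was -0.33 on TPM with pseudocount 0.1. The sign turned for Cry1 with upper quartile scaling (0.0088), Nfil3 with the length trend removed (-0.029) and on TPM (-0.095 and -0.094 with pseudocounts 0.1 and 1), and Bhlhe40 on TPM (-0.0442 and -0.0439). With each library left out the log2 fold changes ranged from -0.17 to 0.056 for Cry1, -0.41 to 0.15 for Per3, -0.45 to 0.035 for Nr1d2, -0.055 to 0.097 for Nfil3, -0.31 to 0.58 for Bhlhe41, -0.12 to 0.42 for Ciart and -0.76 to 0.15 for Npas2. The cause of these changes was not tested. Per3, Nr1d1, Hlf, Npas2, Bhlhe41 and Ciart rest on few reads, and small differences in them were not detectable at this depth.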

Other observations

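The genes whose pattern over the 6 libraries lay closest to Dbp, by root mean square distance of centred log2 CPM among 10448 genes with a mean of at least 5 CPM, were Ifit1bl1 (0.0653), Oasl1 (0.0853), Ddx59 (0.0854), Hspbap1 (0.0924) and Itsn1 (0.0933), where the median distance was 0.328. Among the clock genes Per1 was closest to Dbp, at place 24 (0.129), followed by Nfil3 at place 280, while Tef was at place 5273 and Per2 at place 10014. The genes closest to Nr1d1 were Pvr (0.103), Gpr183, Mturn, Ralgps2 and B3galt5 (0.165), with Dbp at place 93 and Per1 at place 121 of 10449. With 6 libraries and a low count for Nr1d1 these distances describe these libraries alone.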
